A study of Bos taurus and Ovis aries and Capra hircus with 27 samples.

Results

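EF-hand calcium-binding proteins were examined in the heart, liver and kidney of goats. A goat gene model was taken as a member when its deposited protein sequence held at least 2 separate matches to the calcium-binding loop of the EF-hand, its identifier carried no suffix for an extra copy, and the protein did not end in the 4-residue signal that keeps proteins in the endoplasmic reticulum. The rule read sequence alone and no expression value. It found 73 members among the 22131 goat models of the expression table, of which 17138 had a protein sequence and no copy suffix. The files carry no gene names, so members are called here by sequence class and protein length, and an identifier is given for 4 of them.

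The EF-hand is a helix, a short loop and a second helix, and the loop wraps a calcium ion with oxygen atoms from residues at fixed positions. The hands usually come in pairs. Some EF-hand proteins are sensors, which change shape when cytosolic calcium rises and then act on a partner (calmodulin, troponin C, the neuronal calcium sensors, calcineurin B). Others buffer calcium (parvalbumins, calbindins), and in a further group the hands are a regulatory part of an enzyme, a carrier or an actin-binding protein. In the heart, troponin C couples the calcium transient to contraction, and in the kidney EF-hand proteins are known from calcium transport and signalling in the tubule.

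The goats were of an indigenous strain and about 3 years old per the labels. The study's methods state 3 unrelated adult females per population, with several tissues taken. They received no treatment that the labels name. Messenger RNA of heart, liver and kidney was sequenced from 3 samples each, giving 9 libraries, and values are FPKM, fragments scaled by transcript length and by the number of mapped fragments. Over all 13634 models tested, libraries of 1 tissue correlated with r of 0.918 to 0.985 and libraries of different tissues with 0.551 to 0.667. The tissues could not be checked against marker genes, since no model has a name. The tissues are whole organs, so fewer cells of a type and less RNA per cell cannot be told apart.

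The 73 members held 176 loops. Of these members, 54 had 2 loops, 10 had 3, 7 had 4 and 2 had 5. Neighbouring loops started a median of 39 residues apart, and the most frequent distance was 36 residues, found in 28 of 103 pairs. In 86 pairs the distance was 28 to 52 residues, limits chosen for this count, and 60 members had at least 1 such pair. The count takes neighbouring loops, whether or not they belong to the same pair of hands. The shortest distance was 27 residues. The glycine at loop position 6, which lets the loop turn, was present in 90.3% of the members' loops and in 53.7% of the 82 loops of proteins with a single match. Glutamate at position 12, the residue that binds calcium with both of its side-chain oxygens, stood in 92.0% and 67.1%. Isoleucine at position 8, where paired loops touch, stood in 52.3% and 31.7%. The pattern limits these positions to a few residues, so the shares are partly set by the rule and are given as a description, and loops of 1 protein are not independent of each other. The members' median length was 265 residues, against 326 for all goat proteins, with a range from 100 to 7289.

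From further sequence features, 54 members fell into 17 classes, and 19 stayed outside them. A class says which signature, similarity, loop number or length a protein has, and is not a gene name. The classes were the calmodulins (3 models), a calmodulin-like protein (1), the troponin C type (1), the centrin type (3), the neuronal calcium sensor type (11), the calcineurin B type (6), the calpain type (5), the penta-EF-hand type (3), the plastin type (2), the diacylglycerol kinase type (3), the C1 type (3), the mitochondrial carrier type (2), the phospholipase C type (2), the PPEF phosphatase type (2), the parvalbumin type (2), the calbindin type (3) and the dual oxidase type (2). Features of each class are given where it is described.

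In the test, 45 of the 73 members exceeded 0.5 FPKM in at least 3 of the 9 libraries, which is 61.6%, the same share as among all goat models (61.6%). The other 28 were low everywhere, with 1.82 FPKM the highest value in any library, 22 of them under 0.5 FPKM in every library and 7 listed at 0 in all 9. The number of loops made little difference to being measured, with 34 of 54 members with 2 loops and 11 of 19 with 3 to 5 loops tested. Members above 0.5 FPKM numbered 39 to 46 of 73 in a library. Their summed FPKM was 11696, 9639 and 9683 in heart, 1217, 1189 and 1345 in liver and 2077, 2479 and 2565 in kidney. A single member made most of the heart sum. Without it the heart sums were 1476, 1597 and 1649, above the 3 liver and below the 3 kidney values. The FPKM of all models also summed to more in heart (808954 to 828807) than in liver (574638 to 619613) or kidney (591079 to 648510). The members' sums are not corrected for this, so their order is not an order of shares of a library.

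**Figure D1:**
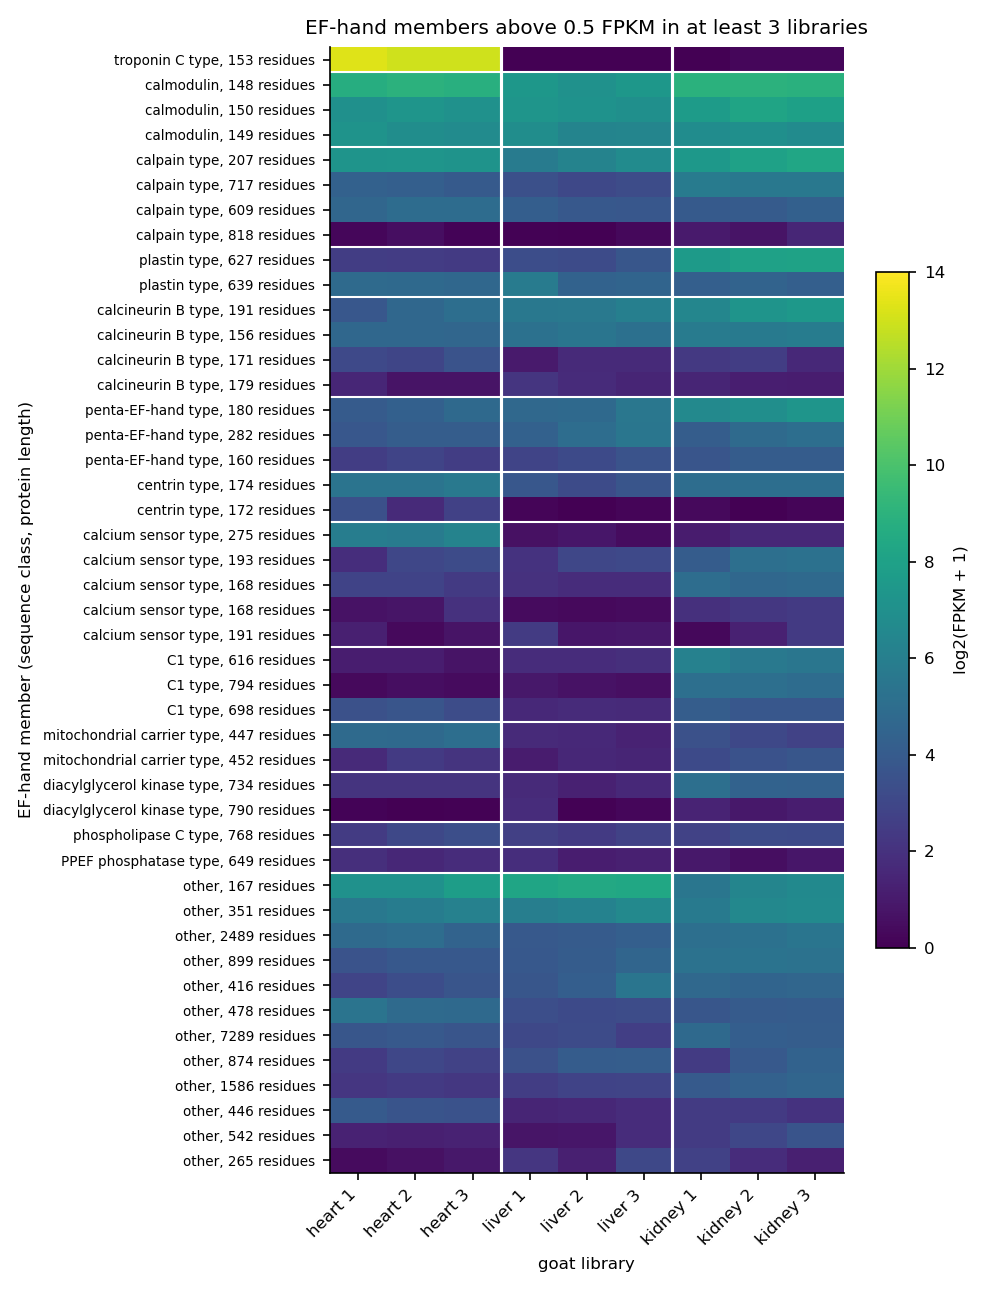
Level of the 45 tested EF-hand members (rows, named by sequence class and protein length) in the 9 goat libraries (columns), as log2(FPKM + 1) from 0 (dark) to 14 (light). The troponin C type stands alone at the top of the scale in the 3 heart libraries, and most other rows change by tissue rather than by library.

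Differences between tissues were tested with limma on log2(FPKM + 1) over all 13634 tested models, and a member was called when its Benjamini-Hochberg adjusted p was at or below 0.05. For genes with low values the added 1 makes such a difference smaller than the change in FPKM. Between heart and liver 26 members were called, against 49.2% of all tested models. Higher in heart were 17 (29.6% of all models) and higher in liver 9 (19.6%). Between heart and kidney 31 were called (63.2%), 10 higher in heart (17.9%) and 21 higher in kidney (45.3%). Between liver and kidney 30 were called (65.0%), 2 higher in liver (13.4%) and 28 higher in kidney (51.6%). The members' median log2 difference was 0.17, -0.67 and -0.79 in these 3 comparisons, and that of all tested models 0.10, -0.55 and -0.69. The calls made up 57.8%, 68.9% and 66.7% of the 45 tested members, within 10 percentage points of the share of all models in each comparison.

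The balance of directions depended on how libraries were scaled. All tested models had a median shift of 0.10 to -0.69 as deposited and of -0.04 to -0.01 after median ratio scaling. After that scaling the members' calls were 16 higher in heart and 15 higher in liver, 14 in heart and 15 in kidney, and 8 in liver and 18 in kidney. Of the calls over all models, the share higher in the first-named tissue moved from 60.2% to 50.1% (heart and liver), from 28.3% to 49.9% (heart and kidney) and from 20.6% to 51.2% (liver and kidney). Without heart replicate 2 the count between heart and liver was 15, against 40.8% of all models tested then. Member by member, 47 of the 87 calls kept direction and threshold under all 16 alternative settings. A further 8 did so under every setting in which the member passed the filter. The same was not counted over all models.

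**Figure D2:**
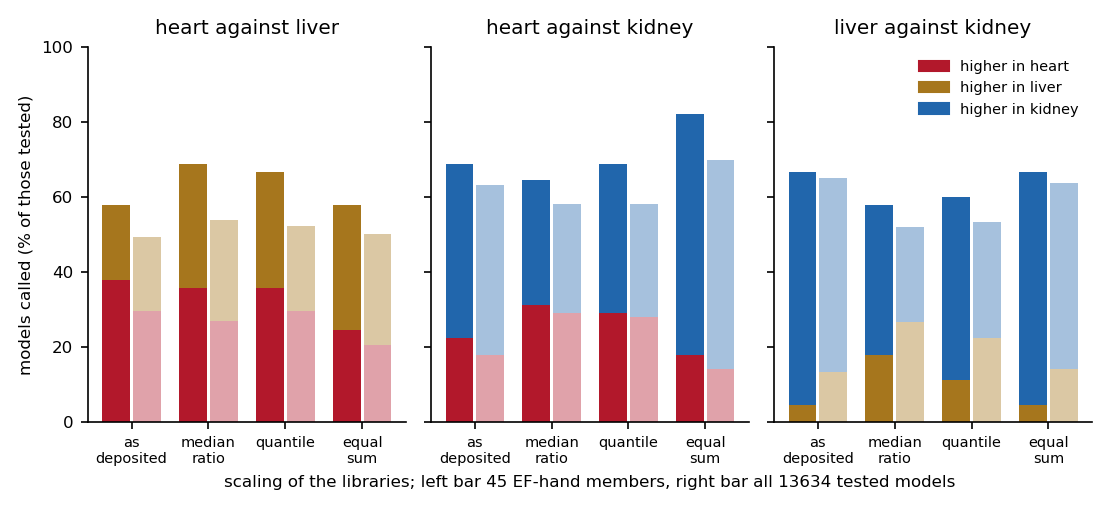
Share of models called in each pair of tissues (y axis, % of those tested), for the 45 EF-hand members (left, full colour) and all 13634 tested models (right, pale), under 4 scalings of the libraries, with colour for the tissue in which the model was higher. The split by tissue shifts with the scaling.

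A member called higher in a tissue than in both others is described as elevated there. By this rule 8 members were elevated in heart (14.5% of all tested models), 1 in liver (9.59%) and 18 in kidney (34.2%). Of these, 7 in heart, the 1 in liver and 11 in kidney were elevated under each of 4 scalings. Models elevated under each scaling were not counted over all tested models. With median ratio scaling the counts were 10, 5 and 12 (19.5%, 15.4% and 16.6% of all models). The liver count was 2 with the replicate number as a block (10.6% of all models). It was 0 without heart replicate 1, heart replicate 2, liver replicate 2 or liver replicate 3 (6.85% to 9.32% of all models). The troponin C type and the 172-residue centrin type, both elevated in heart, passed the filter through heart libraries alone. The 818-residue calpain, elevated in kidney, passed it through kidney libraries alone.

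**Figure D3:**
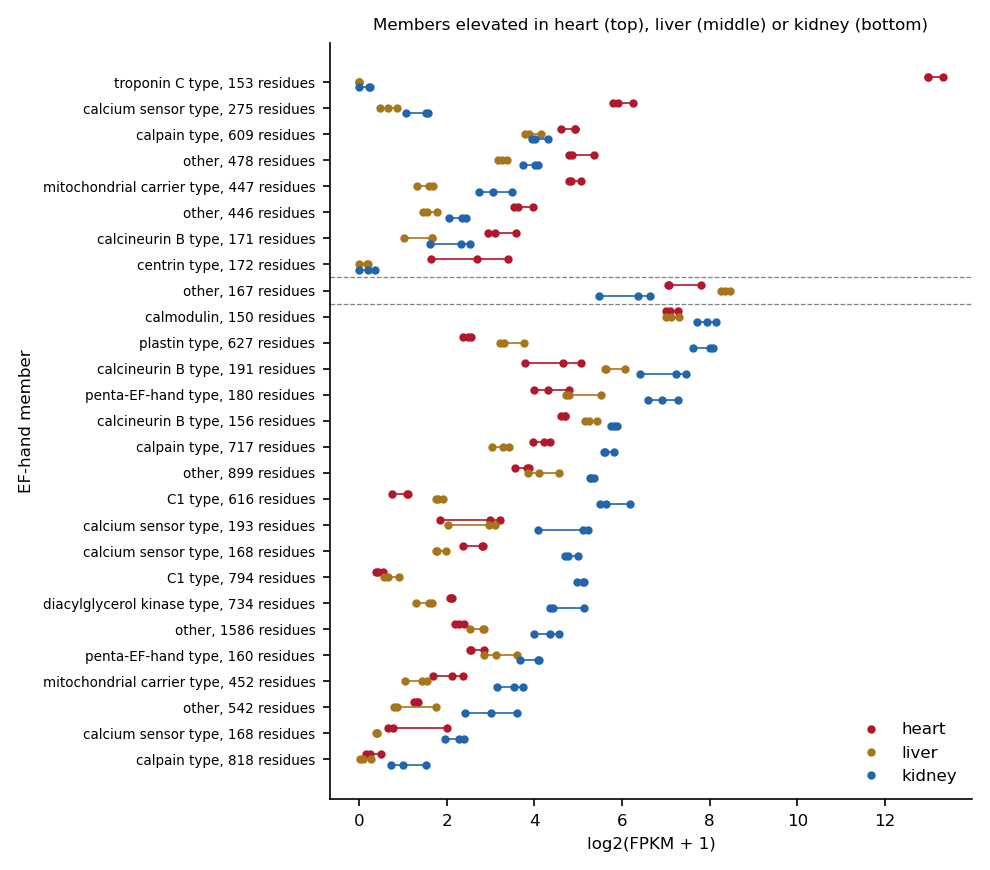
Values of the 27 members elevated in 1 tissue, in each library as log2(FPKM + 1) (x axis), with 1 point per library and a line over the range of each tissue. The top block of 8 rows is elevated in heart, the middle row in liver and the lower block of 18 rows in kidney.

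The highest member was a protein of 153 residues with 3 loops and 52% identity to calmodulin, the features of troponin C, whose first loop is degenerate in heart muscle (GOAT_ENSP00000232975, scaffold 1513, 1610241 to 1611486, minus strand). Troponin C is the calcium-binding subunit of troponin on the thin filament, and calcium binding to it starts contraction. Its level was 10220, 8042 and 8034 FPKM in the heart libraries. It was listed at 0 in the 3 liver libraries and at 0, 0.168 and 0.192 FPKM in kidney. Heart and the other tissues were separate in every library, and limma called heart higher than liver (adjusted p = 1.9e-10) and than kidney (adjusted p = 2.06e-10). The model passed the filter through the heart libraries alone, so these calls are not independent of the filter. Among all goat models it ranked 7, 12 and 11 in the 3 heart libraries.

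Calmodulin, the general calcium sensor of eukaryotic cells, was encoded by 3 models on scaffolds 52, 1389 and 550, whose proteins of 148, 150 and 149 residues were identical over the shorter sequence. Mammals carry several calmodulin genes for 1 protein, and reads of similar transcripts could be split between them by the authors' quantification, so levels of single models are less certain than their sum. Summed over the 3 models, calmodulin stood at 727.8 ± 50.9 FPKM in heart, 389.1 ± 44.5 in liver and 849.9 ± 54.6 in kidney (SD, n = 3). The lowest heart and kidney sums, 692.2 and 811.5, were above the highest liver sum of 438.1.

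The 148-residue calmodulin model read 420, 517 and 463 FPKM in heart, 166, 135 and 171 in liver, and 494, 502 and 475 in kidney. Liver lay below both other tissues without overlap. The log2 difference was 1.57 ± 0.18 (SE) between heart and liver (adjusted p = 7.76e-05) and -1.64 ± 0.18 between liver and kidney (adjusted p = 5.34e-05). Between heart and kidney it was -0.08 ± 0.18 (adjusted p = 0.736), 0.61 with median ratio scaling (adjusted p = 0.02) and -0.45 with quantile normalization (adjusted p = 0.0355), so the order of these tissues depended on the scaling.

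The 150-residue model had another pattern, with 128, 155 and 137 FPKM in heart, 158, 138 and 127 in liver, and 207, 284 and 245 in kidney. Kidney was higher than heart (-0.80 ± 0.19, adjusted p = 0.00503) and than liver (-0.79 ± 0.19, adjusted p = 0.00539). With median ratio scaling these differences were -0.11 (adjusted p = 0.67) and 0.11 (adjusted p = 0.69). The 149-residue model was called in no comparison as deposited, at 121 ± 20.3, 90.8 ± 20.2 and 114 ± 10.8 FPKM in heart, liver and kidney (SD, n = 3). It was called between heart and liver when liver replicate 1 was left out (0.60, adjusted p = 0.0425), and between heart and kidney with median ratio scaling (0.76, adjusted p = 0.045). As a share of the calmodulin sum, the 148-residue model made up 60.7 to 65.8% in heart, 37.9 to 45.2% in liver and 55.1 to 60.9% in kidney, and the 150-residue model 18.5 to 19.7%, 33.5 to 39.4% and 25.5 to 31.1%. Another, calmodulin-like protein of 149 residues with 4 loops was listed at 0 in all 9 libraries.

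**Figure D4:**
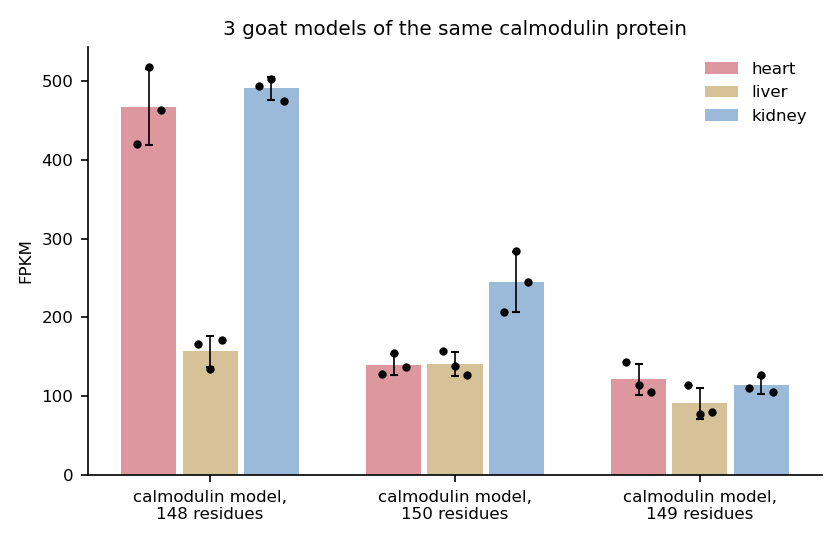
FPKM (y axis, from 0) of the 3 goat models that encode the same calmodulin protein, with bars for the mean of 3 libraries, error bars for 1 SD and points for libraries 1 to 3 of heart, liver and kidney. The 148-residue model is low in liver, the 150-residue model is high in kidney and the 149-residue model differs little.

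Centrins, small proteins of the centriole, resemble calmodulin and were taken as proteins of up to 200 residues with 2 loops and at least 45% identity to it. The 174-residue model read 41.4, 40.6 and 50.0 FPKM in heart, 13.0, 8.25 and 11.7 in liver, and 30.9, 31.8 and 32.9 in kidney, with no overlap between tissues. Liver was lower than heart (1.92 ± 0.20, adjusted p = 3.84e-05) and than kidney (-1.48 ± 0.20, adjusted p = 0.000186). Heart and kidney differed by 0.45 ± 0.20 (adjusted p = 0.0758), which passed the threshold with the replicate number as a block (adjusted p = 0.047), with median ratio scaling (1.11, adjusted p = 0.00193) and with quantile normalization (0.77, adjusted p = 0.0108), and was 0.07 (adjusted p = 0.787) with libraries at an equal FPKM sum. The 172-residue model was elevated in heart, at 9.50, 2.13 and 5.44 FPKM. It passed the filter through these heart libraries alone, so its calls are not independent of the filter. It read 0.140, 0 and 0.144 in liver and 0.287, 0 and 0.152 in kidney, so its heart values were separate from the rest but spread widely. The third model was listed at 0 in all libraries.

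The neuronal calcium sensors carry a short box with cysteine and proline near a degenerate first hand, present in 10 members and in 0.055% of all goat proteins, and 1 more member was placed with them by similarity. Members of this family regulate channels, receptors and guanylate cyclases, mostly in neurons and the retina. Of the 11 models 5 were tested, and 3 of these were elevated in kidney and 1 in heart. The other 6 did not exceed 0.662 FPKM in any library.

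The heart member of this class was a protein of 275 residues with 3 loops (GOAT_ENSP00000420040, scaffold 532, 802624 to 806111, plus strand). It read 59.2, 54.9 and 75.6 FPKM in heart, 0.571, 0.823 and 0.398 in liver, and 1.10, 1.90 and 1.98 in kidney. The heart libraries lay far above all others. The log2 difference was 5.33 ± 0.22 against liver (adjusted p = 5.41e-08) and 4.60 ± 0.22 against kidney (adjusted p = 2.6e-07). Kidney was above liver by a smaller step (-0.73 ± 0.22, adjusted p = 0.0145), which lost its call without kidney replicate 2 (-0.65, adjusted p = 0.0569) or kidney replicate 3 (-0.64, adjusted p = 0.0542), and was -0.26 (adjusted p = 0.318) with median ratio scaling and -0.13 (adjusted p = 0.622) with quantile normalization.

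The kidney members of the class were lower. A 193-residue protein was at 2.57, 6.95 and 8.28 FPKM in heart, 3.08, 6.83 and 7.58 in liver, and 15.9, 33.4 and 36.1 in kidney. Replicate 1 was the lowest library in each tissue, yet every kidney value lay above every other. Kidney exceeded heart by 2.12 ± 0.45 on the log2 scale (adjusted p = 0.0028). A 168-residue protein with 2 loops, 86.3% identical to it, stood at 5.43 ± 1.06 FPKM in heart, 2.58 ± 0.312 in liver and 27.4 ± 3.16 in kidney (SD, n = 3), and kidney exceeded heart by 2.15 ± 0.19 (adjusted p = 1.31e-05) and liver by 2.99 ± 0.19 (adjusted p = 1.69e-06). A second 168-residue protein, with 3 loops, was at 2.90 to 4.26 FPKM in kidney and at most 3.03 elsewhere, and its call between heart and kidney (-1.06 ± 0.32, adjusted p = 0.0168) was lost without heart replicate 1, heart replicate 2 or kidney replicate 3, with adjusted p of 0.0535 to 0.0674. It was -0.59 (adjusted p = 0.136) with median ratio scaling and -0.41 (adjusted p = 0.305) with quantile normalization.

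Calcineurin B is the regulatory subunit of a calcium-dependent phosphatase, and related proteins bind an ion exchanger and integrin tails. The 6 members of this type share a short box with asparagine and proline found in 0.082% of goat proteins, and 4 were tested. The 191-residue member read 12.7, 24.3 and 32.4 FPKM in heart, 48.0, 48.8 and 66.0 in liver, and 84.4, 150 and 174 in kidney, so the 3 tissues did not overlap. The difference between heart and kidney was -2.54 ± 0.37 (adjusted p = 0.000299). Those between heart and liver (-1.27 ± 0.37, adjusted p = 0.0175) and between liver and kidney (-1.26 ± 0.37, adjusted p = 0.0137) depended on single libraries. The first was -0.91 (adjusted p = 0.059) without heart replicate 1 and -1.13 (adjusted p = 0.057) without liver replicate 3, and the second was -1.06 (adjusted p = 0.0525) without kidney replicate 3 and -0.37 (adjusted p = 0.318) with median ratio scaling.

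The 156-residue member, with 4 loops, varied little within a tissue, at 24.5 ± 0.868 FPKM in heart, 38.1 ± 3.86 in liver and 55.4 ± 2.26 in kidney (SD, n = 3). It was called in all 3 comparisons, in the same order of tissues. The call between heart and kidney (-1.15) was lost with median ratio scaling (-0.47, adjusted p = 0.0599). The call between liver and kidney (-0.53 ± 0.16, adjusted p = 0.0149) turned to 0.35 (adjusted p = 0.156) with median ratio scaling, and was -0.50 (adjusted p = 0.0515) without kidney replicate 3. The 171-residue member was elevated in heart, at 8.40 ± 2.22 FPKM against 1.79 ± 0.642 in liver and 3.62 ± 1.40 in kidney (SD, n = 3), with differences of 1.75 ± 0.30 (adjusted p = 0.000921) and 1.05 ± 0.30 (adjusted p = 0.012).

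Calpains are calcium-activated cysteine proteases that carry a penta-EF-hand domain, and 4 of the 5 members of this type held the calpain active-site signature. The exception, a 207-residue protein without that signature, was 52.2% identical to its nearest calpain over its length, as a small regulatory subunit would be. It was the most abundant of the class, at 152, 154 and 147 FPKM in heart, 55.9, 75.5 and 109 in liver, and 177, 259 and 305 in kidney. Heart values were nearly equal, and all liver values lay below those of the other tissues. Liver was lower than kidney (-1.63 ± 0.28, adjusted p = 0.000799). Heart exceeded liver by 0.96 ± 0.28 (adjusted p = 0.0178), a call that was lost without heart replicate 2 (0.95, adjusted p = 0.0559), liver replicate 1 (0.73, adjusted p = 0.0569) or liver replicate 2 (0.95, adjusted p = 0.0518), and with libraries at an equal sum (0.50, adjusted p = 0.172). Heart and kidney differed by -0.67 ± 0.28 (adjusted p = 0.0613), which passed with the replicate block (adjusted p = 0.0237) and without liver replicate 1, liver replicate 3 or kidney replicate 1 (adjusted p of 0.0204 to 0.0383). It was 0.01 (adjusted p = 0.964) with median ratio scaling and -0.93 (adjusted p = 0.00452) with quantile normalization.

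Of the proteases, the 717-residue calpain was elevated in kidney, at 55.1, 47.8 and 46.8 FPKM against 19.6, 17.7 and 14.7 in heart and 9.65, 7.20 and 8.71 in liver. Its 3 tissues did not overlap, and it was called in all comparisons, with -2.42 ± 0.19 between liver and kidney (adjusted p = 5.26e-06) and 0.94 ± 0.19 between heart and liver (adjusted p = 0.00231). The 609-residue calpain was elevated in heart, at 27.4 ± 3.46 FPKM against 14.5 ± 2.13 in liver and 16.2 ± 2.30 in kidney (SD, n = 3). Its differences, 0.88 ± 0.19 (adjusted p = 0.00407) and 0.73 ± 0.19 (adjusted p = 0.00821), fell to 0.43 (adjusted p = 0.112) and 0.36 (adjusted p = 0.154) when libraries were scaled to an equal FPKM sum. The 818-residue calpain did not exceed 1.89 FPKM in any library and passed the filter through kidney libraries alone. It was elevated in kidney, a result not independent of the filter.

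Penta-EF-hand proteins outside the calpains, a group with roles in membrane repair and trafficking, were represented by 3 members related to each other. The 180-residue member read 15.0, 18.7 and 26.7 FPKM in heart, 25.2, 26.8 and 45.2 in liver, and 95.7, 120 and 155 in kidney. Kidney stood clear of both other tissues, by 2.57 ± 0.30 over heart (adjusted p = 7.81e-05) and 1.92 ± 0.30 over liver (adjusted p = 0.000467). Heart and liver differed by -0.65 ± 0.30 (adjusted p = 0.105), which passed with the block (adjusted p = 0.00587) and with each of the other scalings (-0.68 to -1.10, adjusted p of 0.00863 to 0.0189). The 160-residue member was lower, at 11.7, 15.9 and 16.1 FPKM in kidney, and the 282-residue member was called between heart and liver as deposited, a call (-0.93 ± 0.33, adjusted p = 0.042) that was lost without any 1 of heart replicates 1, 2 and 3, liver replicates 2 and 3 or kidney replicate 2, with adjusted p of 0.0566 to 0.134. Its difference between heart and kidney (-0.65, adjusted p = 0.114) passed with the block (adjusted p = 0.0139) and at an equal sum (-1.02, adjusted p = 0.0213). That between liver and kidney (0.28, adjusted p = 0.482) passed with median ratio scaling (1.15, adjusted p = 0.00319) and with quantile normalization (0.80, adjusted p = 0.0201).

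Plastins bundle actin filaments, and their pair of EF-hands makes bundling respond to calcium. Both members of this type held the actin-binding signature at least 2 times and were 79.3% identical to each other. The 627-residue plastin (GOAT_ENSBTAP00000009308, scaffold 246, 2831836 to 2864985, plus strand) read 197, 255 and 269 FPKM in kidney, 8.97, 8.29 and 12.6 in liver, and 4.88, 4.58 and 4.20 in heart. The 3 tissues did not overlap. Kidney exceeded heart by 5.43 ± 0.21 (adjusted p = 9.27e-08) and liver by 4.47 ± 0.21 (adjusted p = 2.49e-07), the widest of the differences that favoured kidney among the members. The 639-residue plastin differed from it in pattern, at 24.5 to 27.2 FPKM in heart, 20.5 to 55.2 in liver and 17.7 to 20.7 in kidney. It was called in no comparison as deposited. With median ratio scaling its heart and liver levels were above kidney (1.11, adjusted p = 0.042, and 1.48, adjusted p = 0.014), and without liver replicate 1, at 55.2 FPKM the outermost liver value, heart was also called above kidney (0.46, adjusted p = 0.0268).

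Proteins of the C1 type hold the zinc-binding C1 signature, which binds the lipid diacylglycerol and is found in 0.231% of goat proteins, without the lipid kinase box, or are similar to such a protein. EF-hands beside a C1 domain are the arrangement of the RasGRP exchange factors, which switch on small GTPases of the Ras family. The 616-residue member read 71.3, 49.0 and 44.0 FPKM in kidney, 2.47, 2.37 and 2.75 in liver, and 1.17, 1.14 and 0.688 in heart. Kidney exceeded heart by 4.78 ± 0.22 (adjusted p = 2.2e-07) and liver by 3.95 ± 0.22 (adjusted p = 6.66e-07). The 794-residue member had the same order of tissue means, with 34.2, 33.4 and 30.3 FPKM in kidney, 0.877, 0.589 and 0.494 in liver, and 0.298, 0.459 and 0.349 in heart. Its low heart and liver values were not called apart (-0.27 ± 0.16, adjusted p = 0.208). Kidney exceeded heart by 4.62 ± 0.16 (adjusted p = 5.3e-08).

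In the 698-residue member of the C1 type, by contrast, heart (10.2 ± 1.55 FPKM) and kidney (14.1 ± 1.84) were closer to each other and liver was low (2.16 ± 0.136; SD, n = 3). Heart exceeded liver by 1.82 ± 0.18 (adjusted p = 2.7e-05), and the difference between heart and kidney, -0.44 ± 0.18, missed the threshold (adjusted p = 0.0573). It was 0.20 (adjusted p = 0.429) with median ratio scaling, 0.18 (adjusted p = 0.486) with quantile normalization and -0.79 (adjusted p = 0.00281) at an equal sum. The 3 models shared 51.6 to 53.0% identity with their nearest relative.

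Diacylglycerol kinases turn the same lipid into phosphatidic acid, and the 3 members of this type hold both the C1 signature and the kinase box. The 734-residue member was elevated in kidney, at 33.9, 20.5 and 19.5 FPKM against 3.29, 3.23 and 3.34 in heart and 2.18, 1.47 and 2.01 in liver. All kidney values lay above those of the other tissues, by 2.54 ± 0.23 over heart (adjusted p = 1.48e-05) and 3.12 ± 0.23 over liver (adjusted p = 4.09e-06). Heart and liver differed by 0.58 ± 0.23 (adjusted p = 0.063), which passed with the block (adjusted p = 0.0386) and without kidney replicate 1 (adjusted p = 0.0191). The 790-residue member was at 1.20 FPKM or below except in liver replicate 1 (2.38) and kidney replicate 1 (1.66). Its call between heart and kidney (-1.08 ± 0.38, adjusted p = 0.033) was lost without any 1 of heart replicates 1, 2 and 3 or kidney replicates 1 and 3, with adjusted p of 0.0686 to 0.0899, and with median ratio scaling (-0.82, adjusted p = 0.179).

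Calcium-regulated mitochondrial carriers exchange metabolites across the inner mitochondrial membrane. The 447-residue member was elevated in heart, at 27.6, 26.6 and 32.5 FPKM against 2.21, 2.01 and 1.49 in liver and 10.3, 7.32 and 5.72 in kidney, with differences of 3.37 ± 0.22 (adjusted p = 1.79e-06) and 1.80 ± 0.22 (adjusted p = 0.000117). The 452-residue member, 60.9% identical to it, was elevated in kidney, at 7.81, 10.6 and 12.3 FPKM against 2.22, 4.14 and 3.33 in heart. Between heart and kidney its difference was -1.41 ± 0.25 (adjusted p = 0.000875), opposite in sign to that of the 447-residue carrier in the same libraries.

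The remaining enzymes were low. The 768-residue phospholipase C type protein, from an enzyme family that splits membrane inositol lipids, was called in no comparison as deposited, at 4.46 to 9.28, 4.22 to 5.87 and 5.73 to 8.30 FPKM in heart, liver and kidney. With quantile normalization heart was above kidney (0.63, adjusted p = 0.0249). The 649-residue phosphatase of the PPEF type had means of 2.34 ± 0.381 FPKM in heart, 1.72 ± 0.736 in liver and 0.711 ± 0.228 in kidney (SD). Heart and liver libraries overlapped and were not called apart (0.32 ± 0.22, adjusted p = 0.25), except without liver replicate 1 (0.54, adjusted p = 0.0493). Heart exceeded kidney by 0.97 ± 0.22 (adjusted p = 0.0036). This protein was also 1 of the 2 members called higher in liver than in kidney (0.64 ± 0.22, adjusted p = 0.0262). That call was lost without liver replicate 1 (0.43, adjusted p = 0.0862) or kidney replicate 2 (0.53, adjusted p = 0.1). The 2 dual oxidase type proteins, grouped by a shared end, did not exceed 0.397 FPKM in any library.

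Proteins of the calcium buffer classes were hardly detected. The 3 calbindin type proteins were grouped by loop number and length, without a signature, and had 261 to 276 residues with 4 or 5 loops. They reached at most 0.279 FPKM in any library, kidney included. Calbindin is known as a buffer of the distal tubule. The 2 parvalbumin type proteins, of 109 and 110 residues and grouped by their short length alone, reached at most 0.336 FPKM. Depth is not known from FPKM, so these values cannot be set against a detection limit.

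Among the 19 members outside the classes, 12 were tested. The most abundant was a 167-residue protein with 2 loops (GOAT_ENSBTAP00000047882, scaffold 52, 1886785 to 1895023, minus strand), on the same scaffold and strand as the 148-residue calmodulin model and 207888 bases from it. It was the single member elevated in liver, at 304, 351 and 327 FPKM against 132, 132 and 222 in heart and 43.5, 81.6 and 98.9 in kidney. The 3 tissues did not overlap. Liver exceeded kidney by 2.19 ± 0.32 (adjusted p = 0.000317), and heart exceeded kidney by 1.14 ± 0.32 (adjusted p = 0.0118), or by 0.76 (adjusted p = 0.0708) with libraries at an equal sum. The difference between heart and liver, -1.05 ± 0.32 (adjusted p = 0.0225), had an adjusted p of 0.0509 to 0.0846 without heart replicate 1, heart replicate 2, liver replicate 2 or liver replicate 3.

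A 351-residue protein with 5 loops, more than in any other tested member, was called in no comparison as deposited. It read 48.6, 57.8 and 69.2 FPKM in heart, 62.0, 73.8 and 94.5 in liver, and 50.7, 91.3 and 105 in kidney, and replicate 1 was the lowest in each tissue. With median ratio scaling liver was above heart (-0.59, adjusted p = 0.045) and above kidney (0.83, adjusted p = 0.011). At an equal sum, liver and kidney were both above heart (-0.84, adjusted p = 0.0445, and -0.82, adjusted p = 0.0358). Kidney was also called above heart without kidney replicate 1 (-0.75, adjusted p = 0.0276). Across the 45 tested members replicate 1 was the lowest library in all 3 tissues in 9 (20.0%), against 25.1% of all tested models.

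In heart, 2 further members outside the classes were elevated. The 446-residue protein was at 14.7, 11.3 and 10.7 FPKM in heart, 1.75, 1.94 and 2.42 in liver, and 4.42, 4.12 and 3.15 in kidney, with no overlap between tissues. Heart exceeded liver by 2.12 ± 0.20 (adjusted p = 1.73e-05) and kidney by 1.43 ± 0.20 (adjusted p = 0.000203). The 478-residue protein was at 31.7 ± 7.34 FPKM in heart, 8.65 ± 0.680 in liver and 14.4 ± 1.89 in kidney (SD, n = 3), with differences of 1.74 ± 0.20 (adjusted p = 8.59e-05) and 1.06 ± 0.20 (adjusted p = 0.00148). Kidney was above liver in both (-0.69 ± 0.20, adjusted p = 0.0122, and -0.67 ± 0.20, adjusted p = 0.016), but with median ratio scaling these values were -0.03 (adjusted p = 0.931) and 0.16 (adjusted p = 0.627), and the second lost its call without liver replicate 2, kidney replicate 2 or kidney replicate 3 (adjusted p of 0.0549 to 0.0574).

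In kidney, 3 members outside the classes were elevated, of 542, 899 and 1586 residues. For the 899-residue protein, the call between liver and kidney (-1.13 ± 0.21, adjusted p = 0.00126) was lost with median ratio scaling (-0.27, adjusted p = 0.12), and with it the elevation. The 1586-residue protein was at 3.89 ± 0.365, 5.68 ± 0.809 and 18.9 ± 3.89 FPKM in heart, liver and kidney (SD, n = 3), and kidney exceeded heart by 2.01 ± 0.20 (adjusted p = 2.83e-05). The longest member, of 7289 residues, was at 12.9 ± 1.03, 6.87 ± 1.64 and 19.9 ± 5.74 FPKM, and its call between liver and kidney (-1.40 ± 0.24, adjusted p = 0.000775) was lost with median ratio scaling (-0.57, adjusted p = 0.14).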

How the data were processed

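Heart, liver and kidney of goat were compared over 9 libraries, and the cattle and sheep tables (18 of the 27 libraries) were not used, since their identifiers cannot be tied to the members. Library preparation kept strand by the dUTP method and Cufflinks 2.2.1 was used, per the labels, and the study's methods state mapping with TopHat to the goat genome CHIR_1.0. The authors deposited log2(FPKM + 1) per model and library, without counts, so depth is unknown and no counting interval is given. The deposited log2 values were turned back into FPKM before summing or averaging. A value of 0 can be a failed estimate. Goat heart columns carry other names than the sample descriptions and were matched by title. No per-sample column stayed unmatched (0).

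Members were found in the deposited goat proteins, whose last entry is cut off, with Python 3.11.15. Classes came from sequence patterns, loop number, protein length and alignment identity of at least 35% (Biopython 1.88). Scaffold positions come from the protein headers. The family lists and marker lists planned by gene symbol could not be used because no file pairs the identifiers with names. The classes replaced them after the files were examined. The members and lists were chosen with earlier results of these data known.

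Models above 0.5 FPKM in at least 3 libraries were fitted with limma 3.58.1 (R 4.3.3), with 1 mean per tissue, eBayes with trend, and p-values adjusted per contrast by Benjamini and Hochberg. The fit was tested on simulated data. Named members were the 5 with the largest difference per elevated tissue, the 5 most abundant, 2 per class, the 3 most abundant without a call and those with most loops, and others were named after their values were seen. The 9 same-numbered pairs of libraries deviated together (r of 0.146 to 0.472, each over 0.1). Differently numbered pairs had r of -0.417 to 0.134. The lowest same-numbered value, between liver and kidney of replicate 2, was thus close to the highest of the others. The numbers were taken to pair the samples in the replicate block. The main fit, which gave the p-values unless the block is named, did not use this pairing. The labels do not name the animals, and the p-values measure the spread between these samples.

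Alternatives were a pseudocount of 0.1, no filter, the study's filter of 80% of libraries, 3 other scalings, a log2 difference of at least 1, the replicate block, each library left out, copy-suffixed models and at least 3 loops.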

Additional observations from a re-analysis of the deposited data

How the results depend on the processing

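Between heart and liver the count of called members (26) was 14 with a log2 difference of at least 1 and 5 with at least 3 loops. Leaving out 1 library gave 15 to 28, against 40.8% to 53.5% of all models tested then. Between heart and kidney (31) it was 7 with at least 3 loops and 25 to 33 with 1 library left out (54.6% to 68.1%). Between liver and kidney (30) these were 7 and 25 to 30 (55.7% to 66%). Members elevated in heart (8) numbered 2 with at least 3 loops and 6 to 9 with 1 library left out (11% to 15% of all models). In kidney (18) these were 5 and 13 to 20 (26.2% to 36.8%). In liver (1) there were 5 with median ratio scaling (15.4% of all models), 3 with quantile normalization (13%) and 2 with the replicate block. That count was 0 with at least 3 loops and 0 to 1 with 1 library left out (6.85% to 9.61%). No share of all models was computed for the log2 limit, and the loop limit applies to members alone. Fewer members entered the counts with at least 3 loops. For the other changes the cause was not tested. Including copy-suffixed models gave the same counts.

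With the pairing taken into account (replicate block), the counts were 32, 36 and 31 in the 3 comparisons, against 56.5%, 69.3% and 70.9% of all models, and 9, 2 and 20 for members elevated in heart, liver and kidney, against 15.8%, 10.6% and 38.5%. None of the 87 single calls was lost and 12 further ones were gained under the block. Of the 87, 47 held under all 16 settings and 8 under every setting in which the member passed the filter. In at least 1 setting 31 were lost, and in at least 1 setting 5 turned direction. Such counts were not made over all models. The difference between liver and kidney turned to 0.11 for the 150-residue calmodulin, 0.35 for the 156-residue calcineurin B type, 0.16 for the 478-residue and 0.07 for the 160-residue member with median ratio scaling, and to 0.06 for the 446-residue member with quantile normalization. Depth cannot be read from FPKM, so calls of members near 1 FPKM rest on an unknown number of fragments.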

Other observations

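A further 3 goat models met the loop rule but ended in the signal that keeps proteins in the endoplasmic reticulum. They had 4, 5 and 2 loops in 246, 285 and 248 residues. The 246-residue protein was at 45.1 ± 5.14 FPKM in heart, 31.8 ± 11.1 in liver and 74.5 ± 14.6 in kidney (SD, n = 3) and was elevated in kidney. The 285-residue protein was at 8.55 ± 3.16, 16.7 ± 6.38 and 24.2 ± 4.64 FPKM, and the log2 difference between heart and kidney was -1.43 ± 0.33 (SE; limma, adjusted p = 0.00406). The 248-residue protein was at 13.9 ± 4.25, 3.94 ± 0.329 and 11.6 ± 3.97 FPKM, with heart above liver by 1.56 ± 0.29 (adjusted p = 0.00165). All 3 exceeded 0.5 FPKM in every library. The filter asks for this in at least 3 libraries only, and 45 of the 73 members passed it. Of the 82 models with a single loop match, 52 (63.4%) passed it.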
